A study of Mus musculus with 12 samples.

Results

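The NFAT and NF-κB genes are 10 mouse genes: 9 that encode transcription factors, many of them active in stimulated lymphocytes, and 1 that encodes an inhibitor. They were *Nfatc1*, *Nfatc2*, *Nfatc3* and *Nfat5* of the NFAT family, and *Nfkb1*, *Nfkb2*, *Rel*, *Rela*, *Relb* and *Nfkbia* of the NF-κB system, out of 26180 genes with a curated RefSeq transcript on GRCm38 (mm10). A BATF peak was assigned to a gene when its summit, the position of highest signal, lay in the gene body or within 50 kb of either end. By this rule 2 of the 10 genes had a peak in at least 1 of 4 libraries, *Nfkb1* in Th9 cells and *Rel* in Th17 cells, beside 28.4% of all genes.

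BATF, an AP-1 family transcription factor of activated lymphocytes, was pulled down with its DNA from Th9 and Th17 cells, which are helper T cells named for the cytokines IL-9 and IL-17. Naive CD4+ T cells from spleen and lymph nodes of C57BL6/J mice were stimulated with plate-bound anti-CD3 and soluble anti-CD28, which engage the antigen receptor and its costimulator. They were cultured with IL-4, IL-2, TGF-β1 and an antibody to IFNγ for Th9 cells, or with IL-6, TGF-β1, IL-23, IL-1β and antibodies to IFNγ, IL-4 and IL-2 for Th17 cells. The cells were fixed at the end of the culture without a further stimulus. There were 2 BATF libraries per cell type, numbered 1 and 2 for Th9 and 3 and 4 for Th17, each with an input library (no antibody) and an IgG library (control antibody) of the same number. The Methods give adult mice of both sexes for the study as a whole, and the labels give no age for these libraries. No label says whether libraries came from separate animals or cultures, so a p here measures the spread between libraries.

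Most NFAT proteins rest in the cytoplasm in a phosphorylated form. A calcium signal activates the phosphatase calcineurin, which frees them to enter the nucleus, where they often bind DNA beside AP-1 proteins. NF-κB proteins form dimers that IκB inhibitors hold in the cytoplasm until the IκB kinase complex marks the inhibitor for destruction.

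The libraries stood far apart in the number of peaks called against input and IgG together. Th9 library 1 held 1709 peaks and Th9 library 2 held 241, and Th17 library 3 held 4111 peaks and Th17 library 4 held 199. Of the peaks of library 1, 4.21% overlapped a peak of library 2, and 29.9% of those of library 2 overlapped library 1. For libraries 3 and 4 the shares were 2.53% and 52.3%. The lists hold no read counts, so the depth of a library is unknown from them, and a gene without a peak is below the threshold of that library, which does not show that BATF is absent there. Expression is not part of a peak list, so the cell type labels were set only against peaks at marker loci. Th9 library 2 had 2 peaks at *Il9* and the other 3 libraries had 0. At *Il17a* and its neighbour *Il17f*, Th17 libraries 3 and 4 each had 1 peak by the rule, and so did Th9 library 1. *Il23r* had 1 peak in Th9 library 1 only, *Ccr6* and *Irf8* had 1 peak each in Th17 library 3 only, and *Spi1* had 0 in all 4 libraries. The markers therefore did not separate the labels in every library.

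The sequences of the peaks at *Nfkb1* and *Rel* are shown first because they are the peaks that the rule finds. That of the strongest peak just beyond the window, near *Nfatc3*, is shown because it holds an AP-1 match. All are read from the plus strand of GRCm38, at chr3:135711300-135711501 for *Nfkb1*, chr11:23705391-23705556 for *Rel* and chr8:106007281-106007447 for *Nfatc3*. Capitals mark matches to AP-1 (TGAGTCA or TGACTCA), to the NFAT core GGAAA or its reverse TTTCC, and to an NF-κB-type pattern of GGG and CC with 5 bases between them, on either strand.
Nfkb1 peak, Th9 library 1: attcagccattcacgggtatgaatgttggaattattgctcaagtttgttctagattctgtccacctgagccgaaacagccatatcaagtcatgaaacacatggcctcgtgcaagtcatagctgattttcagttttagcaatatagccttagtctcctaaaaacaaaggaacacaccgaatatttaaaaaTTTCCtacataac
Rel peak, Th17 library 3: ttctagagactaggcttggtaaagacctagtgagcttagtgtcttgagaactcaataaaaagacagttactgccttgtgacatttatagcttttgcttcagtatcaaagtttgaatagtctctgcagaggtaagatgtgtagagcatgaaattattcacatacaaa
Nfatc3 distal peak, Th17 library 3: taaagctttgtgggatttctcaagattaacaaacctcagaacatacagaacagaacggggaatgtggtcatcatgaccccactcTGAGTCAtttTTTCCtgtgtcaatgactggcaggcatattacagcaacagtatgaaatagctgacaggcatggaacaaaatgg
The *Nfkb1* peak held 1 NFAT core and no AP-1 match, the *Rel* peak held none of the 3 patterns, and in the *Nfatc3* distal peak 3 bases separated the AP-1 match from the NFAT core.

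*Nfkb1* encodes a precursor that is processed to an NF-κB subunit able to bind DNA without a strong activation domain of its own (chr3:135584655-135691547, minus strand). Its peak in Th9 library 1 was 202 bp wide and lay between genes, with the summit 19.9 kb upstream of the *Nfkb1* start site, which was the nearest start site of any gene. The fold enrichment, the signal at the summit divided by the local background, was 9.06, and the −log10 q was 10.7. By q the peak ranked 78 of the 1709 peaks of its library, within the top 4.56%. The same interval was called against input only, with a fold enrichment of 9.06, and against IgG only, with a fold enrichment of 8.84. No list of libraries 2, 3 or 4 had a peak that overlapped it. The nearest summit to *Nfkb1* was 1957.9 kb away in Th9 library 2, 527.7 kb in Th17 library 3 and 2995.3 kb in Th17 library 4.

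*Rel* encodes c-Rel, an NF-κB subunit of lymphocytes with a strong activation domain (chr11:23736847-23770969, minus strand). Its peak in Th17 library 3 was 166 bp wide, and the summit lay 31.4 kb beyond the 3′ end of *Rel*, in an intron of *Pus10*. The start site of *Pus10*, which encodes a pseudouridine synthase, was the nearest one, at 39490 bp. The fold enrichment was 6.21 and the −log10 q was 5.02, which ranked 1311 of 4111. In the same list 382 other peaks had exactly this fold enrichment and q, and the 4111 peaks took 277 distinct pairs of these values. The peak was also called against input only, with a fold enrichment of 6.21, and against IgG only, with 5.36. No other library had a peak there in any list, and the nearest summits to *Rel* were at 922.2 kb in Th9 library 1, 2634.0 kb in Th9 library 2 and 9120.4 kb in library 4.

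**Figure D1:**
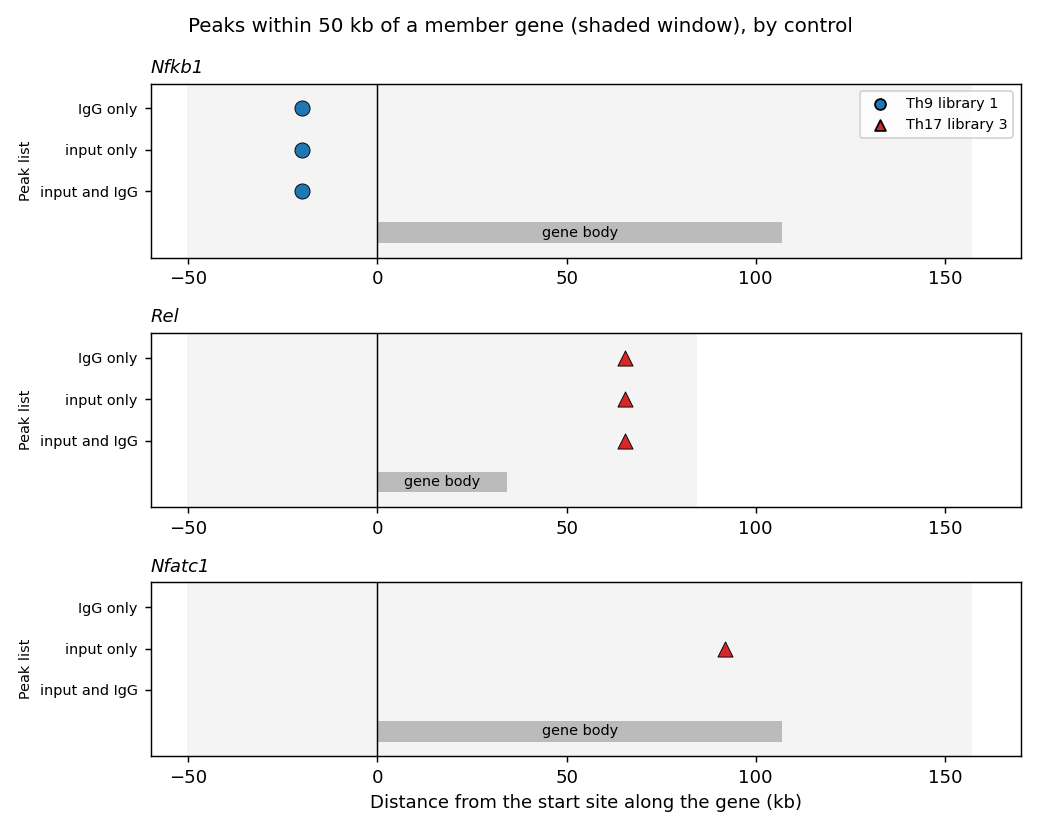
Peaks within 50 kb of *Nfkb1*, *Rel* and *Nfatc1*, by distance from the start site in kb along the gene (horizontal) and by the control the peaks were called against (vertical), with gene bodies as grey bars and the window shaded. The *Nfkb1* peak at 19.9 kb upstream and the *Rel* peak beyond the 3′ end are in all 3 lists of their library, and the *Nfatc1* peak is in the input-only list alone.

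Among the NFAT genes, *Nfatc1* encodes the family member whose own short form is induced by NFAT activity in T cells. None of the 4 libraries had a peak at *Nfatc1* when both controls were used. The input-only list of Th17 library 3 had 1, at chr18:80621166-80621348, in an intron 91764 bp from the start site and 15498 bp from that of *Gm41790*, the nearest, enriched 8.47-fold at a −log10 q of 9.31. It was not called in the IgG-only list of that library. No AP-1, NFAT core or NF-κB-type match lay within 100 bp of its summit. The nearest summit in the combined lists was 104.3 kb upstream in Th17 library 3, at chr18:80817264-80817432 in an intron of *Atp9b*, with a fold enrichment of 5.47 and 1 AP-1 match and 2 NFAT cores within 100 bp. That peak lay outside the window, but *Nfatc1* had the nearest start site to it. The other 3 libraries had their nearest summit to *Nfatc1* at 1143.4 kb, 10660.6 kb and 9974.0 kb.

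*Nfatc2* and *Nfatc3* encode the other calcium-regulated NFAT proteins abundant in T cells. For *Nfatc2* the nearest summit was 389.0 kb away in Th9 library 1, 3792.5 kb in Th9 library 2, 819.5 kb in Th17 library 3 and 7912.4 kb in library 4. *Nfatc3* was the gene just outside the window, with summits of Th17 library 3 on both sides of it. The upstream summit was 51.5 kb from the gene, between genes and 4135 bp from the start site of *Dus2*, enriched 10.2-fold at a −log10 q of 13, and it was called in all 3 lists of the library. The downstream summit was 51.8 kb from the gene, in an intron of *Slc7a6*, enriched 5.08-fold at a −log10 q of 3.32. Of the upstream peak 55.7% was repeat-masked, and of the downstream peak 42.6%. The input-only list of this library also had a peak with its summit 55.2 kb upstream of *Nfatc3*, enriched 7.34-fold at a −log10 q of 7.04. It had 1 AP-1 match and was in neither the combined nor the IgG-only list. *Nfatc3* was 604.3 kb from a summit in Th9 library 1, 758.5 kb in Th9 library 2 and 11600.2 kb in library 4. *Atp9b*, *Dus2* and *Slc7a6* were named after their values were seen.

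*Nfat5* encodes a factor that answers osmotic stress and does not need calcineurin. Its nearest summits lay at 261.8 kb in Th9 library 1, 404.4 kb in Th9 library 2, 195.2 kb in Th17 library 3 and 12834.8 kb in library 4. None of the 4 NFAT genes, all with a body of at least 50 kb, had a summit in its body or within 50 kb in the combined lists. Of all genes that long, 19% had one in Th9 cells and 35.5% in Th17 cells, so 0 of 4 says little about the family.

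Of the other NF-κB subunits, *Rela* encodes the main activating subunit of the classical pathway. Its nearest summit was 932.6 kb away in Th9 library 1, 4667.9 kb in Th9 library 2, 155.7 kb in Th17 library 3 and 230.0 kb in library 4. *Relb* and *Nfkb2* encode the partners of the alternative pathway. The nearest summit to *Relb* was 67.3 kb upstream in Th9 library 1, enriched 4.08-fold at a −log10 q of 2.39, which ranked 1657 of 1709. It lay in an exon of another gene, 1675 bp from that gene's start site, the nearest one, and was absent from the IgG-only list. In libraries 2, 3 and 4 the distances to *Relb* were 169.3 kb, 207.7 kb and 3262.3 kb. *Nfkb2* had no summit nearer than 516.1 kb, the value of Th17 library 3, and was 2846.3 kb, 11513.4 kb and 11513.4 kb from a summit in libraries 1, 2 and 4.

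*Nfkbia* encodes IκBα, the inhibitor that NF-κB itself induces. The nearest summit was 96.3 kb beyond its 3′ end in Th17 library 3, in an intron of *Psma6*, a proteasome subunit gene named after its values were seen. That peak was enriched 7.90-fold at a −log10 q of 8.14 and was called in all 3 lists of the library. It held 2 NFAT cores and 1 NF-κB-type match within 100 bp of the summit. The distances in libraries 1, 2 and 4 were 1462.1 kb, 13199.1 kb and 2706.4 kb.

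**Figure D2:**
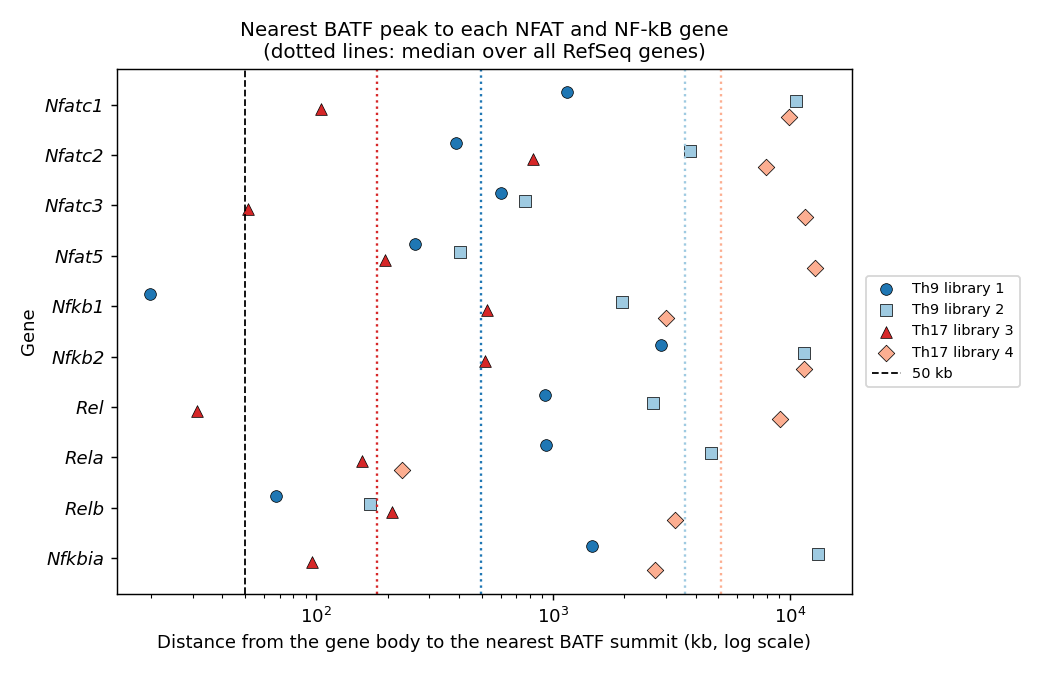
Distance in kb, on a log axis, from each of the 10 gene bodies to the nearest summit in each of the 4 BATF libraries called against input and IgG together (points), with the 50 kb limit dashed and the median over all genes of each library dotted. 1 point of Th9 library 1 (*Nfkb1*) and 1 of Th17 library 3 (*Rel*) lie inside the limit, and *Nfatc3* lies just beyond it.

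The share of the 10 genes with a peak was near that of all genes in Th9 cells and below it in Th17 cells. In Th9 cells 1 of 10 genes had a peak in either library, beside 10.3% of all 26180 genes. In Th17 cells it was 1 of 10, beside 21.8% of all genes. Longer genes catch more summits, and among the 5007 genes with a body of at least 50 kb the shares were 19% in Th9 and 35.5% in Th17. Of the 5 members this long, 1 had a peak in Th9 cells and 0 in Th17 cells. In the input-only lists of Th17 cells, 2 of 10 members had a peak, beside 21.6% of all genes. With the window at 100 kb, 2 of 10 members had a peak in Th9 cells and 3 of 10 in Th17 cells, beside 16.9% and 34.5% of all genes. A count of 1 of 10 beside these shares is not a result about the members.

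The distance to the nearest summit was also set beside that of all genes. In Th17 library 3 the median member was 175.4 kb from a summit, beside 180.8 kb over all genes. In Th9 library 1 it was 763.3 kb, beside 493.9 kb. Libraries 2 and 4, with few peaks, had member medians of 3213.2 kb and 8516.4 kb, beside 3607.6 kb and 5115.4 kb over all genes. In each library 4 or 5 of the 10 members were nearer to a summit than the median gene. The windows of the 10 genes together spanned 1.58 Mb and held 0.635 regions per Mb in each cell type, where a region is a peak of either library with overlapping peaks merged. Over the windows of all genes there were 0.807 regions per Mb in Th9 cells and 1.81 in Th17 cells.

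The number of peaks at these genes was equal in Th9 and Th17 cells. Libraries 1 to 4 had 1, 0, 1 and 0 peaks, so that each cell type had a mean of 0.5 ± 0.707 peaks per library (SD, n = 2). The exact two-sided permutation test gave p = 1, and the smallest p that 2 libraries against 2 allow is 0.33. Each cell type's value rests on 1 library: without library 1 the Th9 count was 0, and without library 3 the Th17 count was 0. The Th9 region and the Th17 region were at different genes and 0 were shared, beside 11.2% of all Th9 regions and 5.02% of all Th17 regions.

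**Figure D3:**
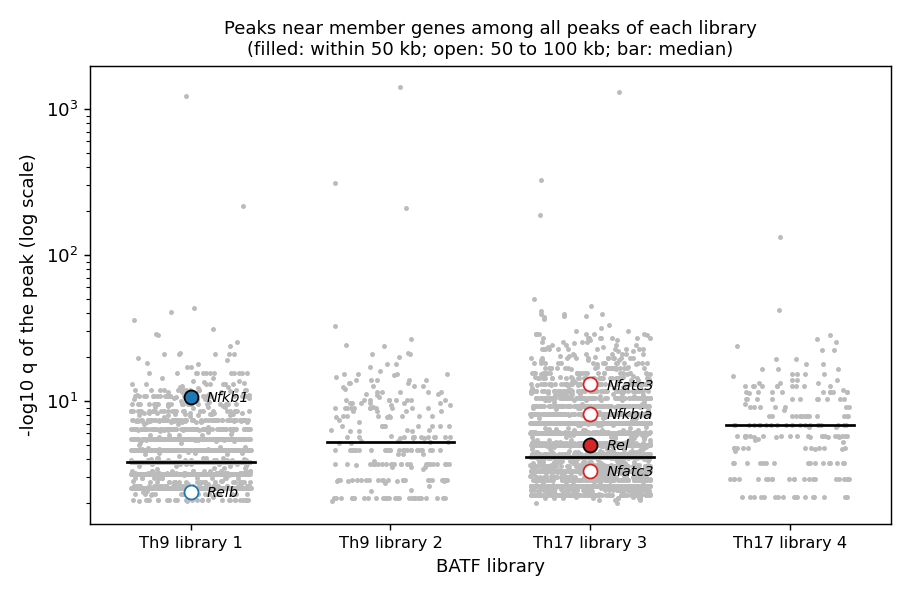
The −log10 q, on a log axis, of every peak in the 4 BATF libraries called against input and IgG together (grey points, spread sideways for display), with the median of each library (black bar) and named peaks within 50 kb (filled) or 50 to 100 kb (open) of a member gene. The *Nfkb1* peak at 10.7 lies well above its library's median of 3.82, and the *Rel* peak at 5.02 lies just above the 4.12 of its own.

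Neither of the 2 regions at member genes had an AP-1 match within 100 bp of the summit, on either strand. Over all regions the share was 15.7% of 1878 in Th9 cells and 19.1% of 4206 in Th17 cells, against 3.78% and 3.25% of windows of equal length centred 2000 bp to either side. The looser form TGANTCA was also absent from both member regions. The patterns that the member proteins themselves are known to bind were about as frequent in BATF regions as beside them. The NFAT core was in 52.7% of Th9 and 52.0% of Th17 regions, against 50.6% and 50.5% of the flanks. The NF-κB-type pattern was in 14.4% and 15.8% of regions, against 15.2% and 15.4% of flanks. These motif differences were not tested. An NFAT core within 10 bp of the AP-1 match, as in the *Nfatc3* distal peak, was found in 34 of 295 Th9 regions with AP-1 (11.5%) and in 68 of 803 Th17 regions (8.47%). Among flanks with AP-1 it was found in 7 of 142 for Th9 (4.93%) and 24 of 273 for Th17 (8.79%). This spacing was counted after the *Nfatc3* peak had been seen.

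Of 50 other genes of both pathways, 26 had a peak in at least 1 library, beside 28.4% of all genes. These counts rest on Th9 library 1 and Th17 library 3. Library 2 had a peak at *Map3k7* only, which library 1 also had. Library 4 had peaks at *Itpr1* and *Otulin* only, which library 3 also had. All 50 genes of the lists, 22 for NFAT and 28 for NF-κB, were found in the annotation. Of the NFAT list, 7 genes had a peak in Th9 cells (31.8%) and 10 had one in Th17 cells (45.5%), with 4 counted in each. Of the NF-κB list, 5 genes had a peak in Th9 cells (17.9%) and 10 had one in Th17 cells (35.7%), with 2 counted in each. The NFAT genes were long, with a median body of 59.4 kb, beside 28.8 kb for the NF-κB list and 13.45 kb over all genes. Among NFAT genes with a body of at least 50 kb, 6 of 11 had a peak in Th9 cells and 5 of 11 in Th17 cells. For NF-κB genes of that length it was 4 of 9 and 2 of 9. The shares over all genes of that length were the 19% and 35.5% given for the members, and the differences were not tested. Of the 50 genes, 8 had a peak in at least 2 of the 4 libraries, beside 4.17% of all genes of any length, and 24 had none in any of the 4. Without library 1, only *Itpr1* and *Otulin* had a peak in at least 2 libraries, and without library 3 only *Itpr1* and *Map3k7*. Against input only, *Ppp3cb*, *Tab2* and *Otulin* had a peak in just 1 library. Against IgG only, *Ppp3cb* and *Tab2* did, while another gene of the NFAT list reached 2. The difference from the members was not tested.

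**Figure D4:**
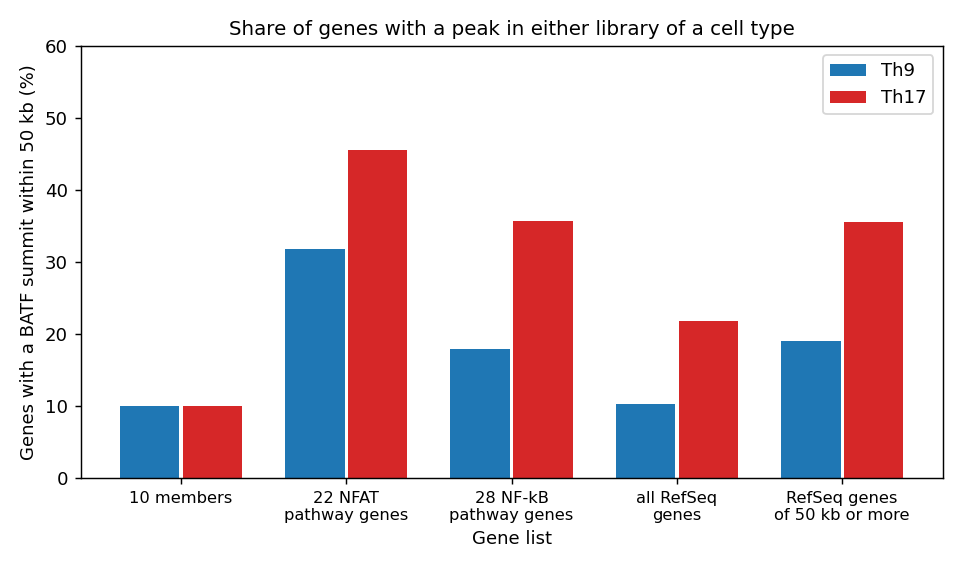
Percent of genes with a BATF summit in the body or within 50 kb, in either library of Th9 (blue) or Th17 cells (red), for the 10 members, both pathway lists, all RefSeq genes and RefSeq genes with a body of at least 50 kb, as bars with no error since each is 1 count. The members stand at 10% in both cell types and the NFAT list at 31.8% and 45.5%.

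*Ppp3ca*, *Ppp3cb* and *Ppp3cc*, which encode catalytic subunits of calcineurin, had 2, 1 and 1 peaks in Th9 library 1, 1, 1 and 2 in Th17 library 3, and 0 in libraries 2 and 4. In an intron of *Ppp3ca* the peak of Th9 library 1 (fold enrichment 5.54) and that of Th17 library 3 (7.34) overlapped, about 73 kb from the start site of this 268 kb gene. The Th9 peak was absent from the IgG-only list. In an intron of *Ppp3cc* peaks of the same libraries also overlapped, with fold enrichments of 5.81 in Th9 library 1 and 10.1 in Th17 library 3. The 2 *Ppp3cb* peaks did not overlap, and neither was in every list: that of Th9 library 1 was absent against IgG only and that of Th17 library 3, 11.9 kb upstream of the gene, against input only. *Ppp3r1*, the regulatory subunit, had 1 peak in Th17 library 3, in an intron, with a fold enrichment of 7.17 and 2 AP-1 matches. Both of these are AP-1:IRF composites, an AP-1 match with GAAA directly before it or with TTTC 2 to 4 bases before it, a pattern found in 2.18% of Th9 and 1.74% of Th17 regions and in 0.0266% and 0.226% of flanks. *Ppp3r1* was named after its values were seen. *Itpr1*, which encodes a calcium release channel of the endoplasmic reticulum, had 4 peaks in Th9 library 1, beside 2 in Th17 library 3 and 1 in library 4. A pair of sites 2.2 kb and 3.3 kb beyond the 3′ end of *Itpr1* was called in both Th9 library 1 and Th17 library 3. In Th17 library 3 the summit of the nearer site was 340196 bp from the start site of this 338 kb gene. Another gene had the nearest start site, at 63549 bp. Of the 42 peaks at genes of both lists, 28 had the start site of the listed gene as the nearest. At the nearer site the fold enrichment was 7.31 in Th9 library 1 and 16.4 in Th17 library 3, the highest of the 42 peaks at genes of both lists.

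The sequences of 3 of the 5 sites called in both cell types, and of the *Ppp3r1* peak with its composites, follow with the same marking. They lie on the plus strand of GRCm38 at chr3:136742884-136743097 (*Ppp3ca*), chr14:70283889-70284054 (*Ppp3cc*), chr6:108553135-108553408 (*Itpr1*) and chr11:17176798-17177027 (*Ppp3r1*), and no exon of RefSeq or GENCODE overlaps them.
Ppp3ca intron, Th17 library 3: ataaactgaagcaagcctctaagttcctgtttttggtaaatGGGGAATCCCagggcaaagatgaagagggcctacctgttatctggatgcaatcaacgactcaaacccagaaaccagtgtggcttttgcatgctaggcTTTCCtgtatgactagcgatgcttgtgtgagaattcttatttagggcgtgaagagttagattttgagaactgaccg
Ppp3cc intron, Th9 library 1: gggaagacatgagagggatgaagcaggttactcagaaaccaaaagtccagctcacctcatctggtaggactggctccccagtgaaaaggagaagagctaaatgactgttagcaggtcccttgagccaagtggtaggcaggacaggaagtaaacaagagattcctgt
Itpr1 downstream, Th17 library 3: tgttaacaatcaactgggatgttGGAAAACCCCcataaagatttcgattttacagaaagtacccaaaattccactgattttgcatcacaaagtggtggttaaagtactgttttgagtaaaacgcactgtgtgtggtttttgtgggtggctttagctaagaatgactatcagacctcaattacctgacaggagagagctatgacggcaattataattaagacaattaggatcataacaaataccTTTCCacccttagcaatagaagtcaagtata
Ppp3r1 intron, Th17 library 3: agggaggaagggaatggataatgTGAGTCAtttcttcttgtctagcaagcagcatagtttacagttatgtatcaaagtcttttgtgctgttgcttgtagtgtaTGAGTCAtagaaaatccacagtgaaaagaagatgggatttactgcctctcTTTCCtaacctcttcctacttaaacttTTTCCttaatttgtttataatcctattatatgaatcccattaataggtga
The first 3 of these, at sites called in both cell types, held no AP-1 match. The other site of the *Itpr1* pair and a site near *Malt1* were also called in both cell types and are not printed. That *Itpr1* site held no AP-1 match, and the *Malt1* site held 1 in each library. The *Ppp3ca* site held 1 NF-κB-type match in the peaks of both libraries. The printed *Itpr1* interval of Th17 library 3 also held 1, overlapping an NFAT core, but it lies outside the narrower peak of Th9 library 1 and over 100 bp from the summits.

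In the NF-κB list, *Malt1*, a protease of the antigen receptor signalling complex, had 2 peaks in Th9 library 1 and 1 in Th17 library 3. A site 0.5 kb beyond its 3′ end was called in both, with fold enrichments of 7.38 and 11.8, and held 1 AP-1 match in each. *Map3k7*, which encodes the kinase TAK1, had 1 peak in each Th9 library, 1.5 kb upstream in library 1 and 35.9 kb downstream in library 2, and 0 in Th17 libraries. *Tab2*, a partner of that kinase, had 1 intron peak in Th9 library 1 and 1 in Th17 library 3, which did not overlap. The Th9 peak at *Tab2* was absent against IgG only and the Th17 peak there against input only. *Otulin*, a deubiquitinase that restrains the pathway, had 1 peak in each Th17 library, at different places, and 0 in Th9 libraries. Its library 4 peak, 12.8 kb beyond the 3′ end in an exon of another gene, was absent against input only.

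**Figure D5:**
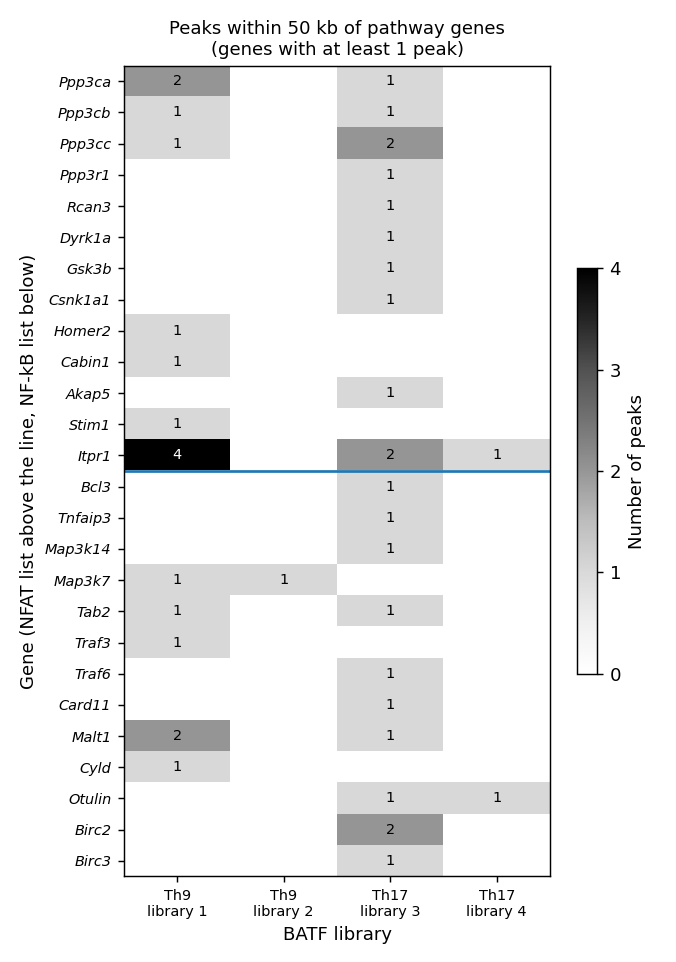
Number of peaks within 50 kb (shade and figure in the cell) for the 26 pathway genes with at least 1 peak, by BATF library, with the NFAT list above the line and the NF-κB list below. Th9 library 1 and Th17 library 3 hold nearly all of them, and *Itpr1* has the most in 1 library, 4.

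Of the 18 Th9 regions at genes of the lists, 5 overlapped a Th17 region (27.8%), and of the 24 Th17 regions 5 overlapped a Th9 region (20.8%). Over all regions the shares were 11.2% of 1878 Th9 regions and 5.02% of 4206 Th17 regions. All 5 shared sites were between Th9 library 1 and Th17 library 3, the libraries with the most peaks, and the part of peak number in this was not tested. They include both sites of the *Itpr1* pair, 2.2 kb and 3.3 kb beyond the 3′ end of that gene, so they are not 5 separate loci. At the pathway genes 3 of 18 Th9 peaks (16.7%) and 7 of 24 Th17 peaks (29.2%) had an AP-1 match, beside 15.7% and 19.1% over all regions.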

How the data were processed

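By the submitters' processing notes and the study's Methods, the authors trimmed reads with Trim Galore 0.4.3, aligned them to mm10 with Bowtie2 (version not given) and called peaks with MACS2 2.1.0 at a q threshold of 0.01, duplicates kept, each BATF library on its own against input, against IgG and against both, which gave 12 lists. Which control a list used was read from its name. The deposited fold enrichment is a ratio (signal at the summit over local background), and the deposited −log10 p and −log10 q are those of the caller. No filter against problem regions is given in the sources used here. Gene spans are those of curated RefSeq transcripts, release 108.20200622, and sequences are from RefSeq, GRCm38.p6. Regions merged peaks sharing at least 1 bp. Motifs were searched on both strands. Named genes are the 10 members, genes with the start site nearest to a member peak, and pathway genes with a peak in at least 2 of 4 libraries. The cell type markers are a list of their own, and *Atp9b*, *Dus2*, *Slc7a6*, *Psma6* and *Ppp3r1* were named outside the rule after their values were seen. The members and lists were chosen with earlier results of these data known. No column was left unmatched (0). Alternatives were the control, q threshold, peak number, window, nearest start site, annotation, overlap and motif. Calculations were tested on simulated data. Python 3.11.15 was used with numpy 2.4.6, scipy 1.17.1, pysam 0.24.0 and matplotlib 3.10.9.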

Additional observations from a re-analysis of the deposited data

Results flagged for a closer look

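The peak in an intron of *Nfatc1* was called in the input-only list of Th17 library 3, which the main counts do not use, with a fold enrichment of 8.47 over the local background. It had no overlapping peak in the IgG-only list or in the list called against both controls. Of the 4024 peaks of that input-only list, 360 (8.95%) had no overlapping peak in the combined list, and 14 of these had a higher −log10 q than the *Nfatc1* peak. The level of the IgG library at this site was not analysed here.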

How the results depend on the processing

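No paired analysis was possible because no library number occurs in both cell types (1 and 2 in Th9, 3 and 4 in Th17). The Th17 minus Th9 difference in peaks per library was 0. It was 1 with the 100 kb window, 0.5 against input only and -0.5 with the top 199 peaks of each library. With 2 libraries in each group, the exact permutation p was 1 under each alternative that allows the test, which says nothing about stability in a design this small. The Th9 and Th17 counts of regions and of members with a peak, all 1, fell to 0 with the gene body only, with a 10 kb window and with regions called in both libraries, and the AP-1 share then had no value. With 100 kb they were 2 regions and 2 members in Th9 cells and 4 regions and 3 members in Th17 cells. The Th17 counts were 2 against input only, where *Nfatc1* was added, and 0 with the top 199 peaks. Leaving out 1 library in turn gave 0 to 1 regions and 0 to 1 members in each cell type, and a difference between -0.5 and 0.5, with no test. Shared regions, which are Th9 member regions that overlap any Th17 region, numbered 0 under all 14 alternatives. Several alternatives could give no other value. With the gene body only, with 10 kb and without library 1 there was no Th9 member region. With the top 199 peaks, without library 2, 3 or 4 and at a minimum −log10 q of 5, peaks were only removed. The 50% reciprocal overlap is stricter than 1 bp. The AP-1 share was 0% of 2 regions, also with TGANTCA and within 50 bp (which lies inside the 100 bp window and could only give 0), 16.7% of 6 with 100 kb and 50% of 2 with the nearest start site, where the *Nfatc1* peak 104.3 kb upstream took the place of the *Rel* peak. Shares of so few regions say nothing about stability. The counts of 1 were the same against IgG only, at a minimum −log10 q of 5, and with GENCODE. The lists give no depth for any library, and the Methods give only an approximate read number per library. Libraries with about 200 peaks can show few sites.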
